A study of Homo sapiens with 18 samples.

Results

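MALAT1, NEAT1, MIAT, LINC00973, ADIRF-AS1, TBC1D22A-DT, BMF-AS1 and PRR11-AS1 are 8 long noncoding RNAs among the 57773 genes measured. They were chosen by their RPKM in these libraries: earlier results of the same data showed them at different levels between sorted cells or between drugs, so their levels and differences are given as a description, with no test. RPE1, an established line of human retinal pigment epithelium cells, was left untreated or treated with cytochalasin D, which blocks actin filament growth and with it cytokinesis, or with ZM447439, an inhibitor of Aurora kinases. Each culture was stained with Hoechst dye (2 µg/mL for 60 min) and sorted by DNA content into a 2N and a 4N population, all from medium with 10% serum. The 6 groups are therefore untreated 2N, untreated 4N, cytochalasin D 2N, cytochalasin D 4N, ZM447439 2N and ZM447439 4N, each with 3 biological replicates and 18 libraries of polyadenylated RNA in all. ZM447439 was given at 2.5 µM for 24 h per the labels, although the same sentence stands on all 18 libraries, and the cytochalasin D dose and time are not stated there. An untreated 4N population holds cells that have replicated their DNA and not yet divided, while a 4N population after either drug can also hold cells that left mitosis undivided.

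Long noncoding RNAs are long transcripts that code for no protein. Some act as scaffolds of nuclear bodies: MALAT1 gathers in nuclear speckles, where splicing factors are stored, and NEAT1 is the backbone of paraspeckles, which hold a set of RNA-binding proteins. Others are read from the opposite strand of a coding gene (antisense, the suffix AS) or away from a coding gene's promoter (divergent transcript, the suffix DT). MALAT1 and the long form of NEAT1 end in a triple helix in place of a poly(A) tail, so selection on poly(A) may catch only some of their molecules. The library kit did not mark strand, so reads from a noncoding RNA and from a gene on the other strand at the same place cannot be told apart.

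The values are RPKM, reads scaled by library size and by gene length, where the length was that of the gene's whole span with introns. A gene was tested when its average reached 0.5 RPKM, which left 13037 genes and kept all 8 noncoding RNAs. MALAT1 (ENSG00000251562) lies on chromosome 11 with a span of 8829 bases, and NEAT1 (ENSG00000245532) on the same chromosome with 22767 bases, and exons of their transcripts together cover each span. MIAT lies on chromosome 22 with a span of 30048 bases and TBC1D22A-DT on chromosome 22 with 670 bases. LINC00973 lies on chromosome 3 with a span of 2039 bases, ADIRF-AS1 on chromosome 10 with 5967, BMF-AS1 on chromosome 15 with 555 and PRR11-AS1 on chromosome 17 with 1153. The reads behind a value ran from 9079 to 50978 per library for MALAT1 and from 10932 to 67966 for NEAT1. TBC1D22A-DT had the fewest, from 26 to 165 per library, so counting error weighs most on it. BMF-AS1 held 83 to 1479 reads, PRR11-AS1 180 to 3616, LINC00973 301 to 1488, ADIRF-AS1 402 to 1978 and MIAT 422 to 6569.

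LINC00973, ADIRF-AS1 and TBC1D22A-DT lie on different chromosomes, and each was lower in 4N than in 2N in untreated cells and higher in 4N under ZM447439, so their promoters are printed here. Each covers 250 bases before to 50 after the annotated start, 5′ to 3′, from RefSeq on GRCh38.p14. Capitals mark matches, on either strand, to an AP-1 element (TGANTCA), an E-box (CACGTG) or an ETS element (CCGGAAGT), 3 short motifs that do not overlap here and were picked after the sequences had been read.
LINC00973, chr3:98980805-98981104, plus strand: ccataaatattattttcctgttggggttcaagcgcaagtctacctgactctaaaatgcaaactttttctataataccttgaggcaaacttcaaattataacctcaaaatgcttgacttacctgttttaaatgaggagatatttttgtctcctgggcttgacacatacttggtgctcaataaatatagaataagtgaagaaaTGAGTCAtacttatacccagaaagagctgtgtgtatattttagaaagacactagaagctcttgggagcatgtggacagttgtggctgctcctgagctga
ADIRF-AS1, chr10:86971191-86971490, minus strand: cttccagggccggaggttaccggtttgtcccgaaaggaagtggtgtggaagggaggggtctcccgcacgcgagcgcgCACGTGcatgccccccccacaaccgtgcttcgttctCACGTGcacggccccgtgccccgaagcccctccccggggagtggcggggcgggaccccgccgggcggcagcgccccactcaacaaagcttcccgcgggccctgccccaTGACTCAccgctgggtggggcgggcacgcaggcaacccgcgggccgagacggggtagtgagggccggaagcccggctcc
TBC1D22A-DT, chr22:46762479-46762778, minus strand: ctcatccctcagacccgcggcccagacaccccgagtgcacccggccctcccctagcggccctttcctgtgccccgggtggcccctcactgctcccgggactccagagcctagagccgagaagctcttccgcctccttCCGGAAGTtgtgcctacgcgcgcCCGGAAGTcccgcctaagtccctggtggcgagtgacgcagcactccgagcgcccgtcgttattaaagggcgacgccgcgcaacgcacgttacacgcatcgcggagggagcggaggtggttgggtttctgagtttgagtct
The LINC00973 window held 1 AP-1 match, the ADIRF-AS1 window 1 AP-1 and 2 E-box matches, and the TBC1D22A-DT window 2 ETS matches. No motif of the 3 stood in all 3 windows. Among 35116 RefSeq promoter windows of this length, 7.71% held the AP-1 letters, 7.26% the E-box and 4.14% the ETS element. A match is a run of letters and not a measured binding site.

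The libraries held an implied 51135724 to 78294434 reads. Keratin genes of epithelium were present in every library (KRT18 39.1 to 121 RPKM, KRT8 4.38 to 13.0), while RPE65, which defines mature retinal pigment epithelium, stood at 0 to 0.0356 RPKM. Of the other pigment epithelium markers, BEST1 stood at 47.1 to 141 RPKM, sharing 1267 exon bases with FTH1, PMEL at 0.442 to 4.64, and MITF, RLBP1, TYR, TYRP1 and TTR at or below 0.236. The blood cell marker PTPRC stayed at or below 0.00525 RPKM, and the 7 blood markers summed to at most 0.687. The summed level of 16 genes of G2 and mitosis was 123 to 166 RPKM in untreated 2N and 411 to 436 in untreated 4N. It was 13.3 to 23.5 in cytochalasin D 2N, 34.6 to 35.2 in cytochalasin D 4N, 18.9 to 41.5 in ZM447439 2N and 62.6 to 86.4 in ZM447439 4N. The summed level of 16 p53 target genes was 36.3 to 54.7 RPKM in the untreated libraries and 50.1 to 207 in the treated ones. Both sorts of untreated number 3, cytochalasin D number 1 and ZM447439 number 1 stood apart from the other libraries of their groups, and some results are given with and without these 6. In bulk RNA, fewer cells of a kind and less RNA per cell cannot be told apart.

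**Figure D1:**
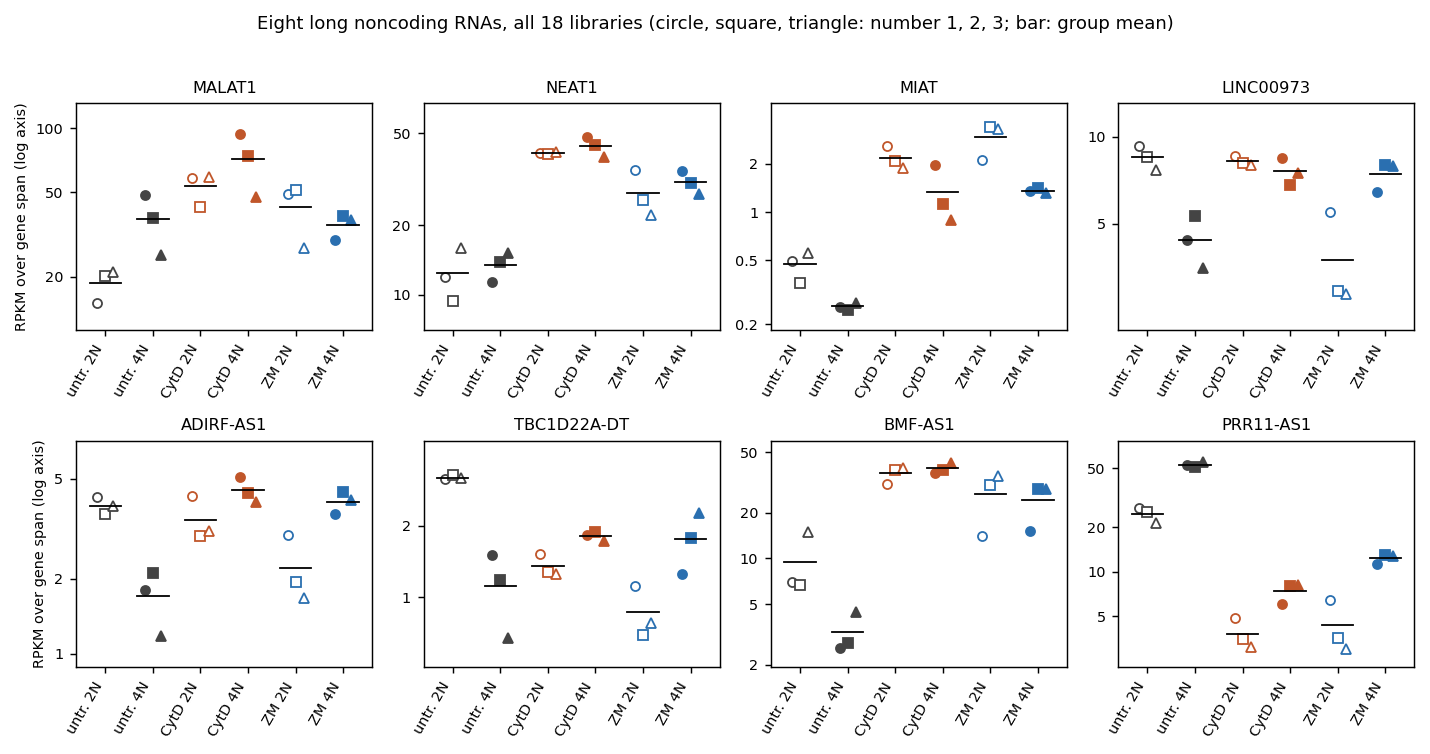
RPKM over the gene span (log axis) of the 8 noncoding RNAs in each of the 18 libraries; open symbols are 2N, filled are 4N, colour is the treatment (grey untreated, orange cytochalasin D, blue ZM447439), symbol shape is the replicate number and the bar is the mean of 3 libraries. NEAT1 and MIAT were higher in every treated library than in every untreated one. BMF-AS1 was too, except that ZM447439 2N number 1 (14.1 RPKM) lay below untreated 2N number 3 (14.9). PRR11-AS1 was lower in every treated library. LINC00973, ADIRF-AS1 and TBC1D22A-DT reversed their order of 2N and 4N between untreated and ZM447439 cells.

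MALAT1 was higher in 4N than in 2N untreated cells and higher under both drugs than in untreated cells of the 2N sort. Its level was 15.0, 20.1 and 21.1 RPKM in the 3 untreated 2N libraries and 48.4, 37.9 and 25.3 in untreated 4N. The untreated groups did not overlap, with means of 18.7 ± 3.31 and 37.2 ± 11.6 RPKM (SD, n = 3), but the ratio of 4N to 2N in same-numbered pairs ran from 1.2 to 3.23. Under cytochalasin D it was 58.4, 42.7 and 58.9 RPKM in 2N and 93.3, 73.9 and 47.6 in 4N. Under ZM447439 it was 49.1, 51.0 and 27.4 RPKM in 2N and 29.9, 38.7 and 37.1 in 4N. All treated 2N libraries were therefore above all untreated 2N libraries, while in the 4N sort both drugs overlapped untreated cells.

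On the log2(RPKM + 0.5) scale MALAT1 was 1.48 higher in cytochalasin D 2N and 1.12 higher in ZM447439 2N than in untreated 2N (SE 0.29 each). In the 4N sort the differences were 0.93 for cytochalasin D and -0.04 for ZM447439. Without the 6 libraries that stood apart, the cytochalasin D difference in 4N was 0.47. The 4N groups of the drugs did not overlap, with 71.6 ± 22.9 RPKM under cytochalasin D and 35.2 ± 4.68 under ZM447439 (n = 3). In order of mean, cytochalasin D 4N was highest, then cytochalasin D 2N, ZM447439 2N, untreated 4N, ZM447439 4N and untreated 2N, and of these neighbours only ZM447439 4N and untreated 2N did not overlap.

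NEAT1 differed by drug and hardly by sort. Its level was 11.9, 9.39 and 15.9 RPKM in untreated 2N and 11.4, 13.9 and 15.2 in untreated 4N. Under cytochalasin D it was 41.1, 40.8 and 41.4 RPKM in 2N and 48.2, 44.6 and 39.5 in 4N. Under ZM447439 it was 34.8, 25.7 and 22.1 RPKM in 2N and 34.5, 30.6 and 27.4 in 4N. Every cytochalasin D library stood above every ZM447439 library, and every ZM447439 library above every untreated one, with no exception among the 18.

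The cytochalasin D difference of NEAT1 from untreated was 1.72 in 2N and 1.68 in 4N on the log2 scale, and the ZM447439 difference 1.12 and 1.17 (SE 0.18). The 4N minus 2N difference was 0.14 in untreated, 0.10 in cytochalasin D and 0.18 in ZM447439, and the sorts overlapped in all 3 treatments. The mean levels were 12.4 ± 3.28 and 13.5 ± 1.92 RPKM in untreated 2N and 4N, 41.1 ± 0.289 and 44.1 ± 4.4 under cytochalasin D, and 27.5 ± 6.54 and 30.9 ± 3.53 under ZM447439 (SD, n = 3). NEAT1 is known as a target of p53, and the summed p53 targets stood at 36.3 to 54.7 RPKM in untreated libraries. They stood at 81.6 to 140 in cytochalasin D 2N, 102 to 181 in cytochalasin D 4N, 50.1 to 139 in ZM447439 2N and 109 to 207 in ZM447439 4N. The part of these genes in the NEAT1 levels was not tested.

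MIAT, a long noncoding RNA first tied to myocardial infarction, was low in untreated cells and lower in 4N than in 2N in every treatment. Its level was 0.498, 0.364 and 0.559 RPKM in untreated 2N and 0.258, 0.246 and 0.273 in untreated 4N. Under cytochalasin D it was 2.59, 2.08 and 1.88 RPKM in 2N and 1.96, 1.13 and 0.894 in 4N, and under ZM447439 2.1, 3.39 and 3.27 in 2N and 1.35, 1.41 and 1.32 in 4N. The 2N and 4N groups did not overlap in untreated or ZM447439 cells and overlapped under cytochalasin D, where 4N was still the lower in 3 of 3 same-numbered pairs (ratios of 0.757, 0.544 and 0.475).

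In log2 terms MIAT was 0.35 lower in 4N than in 2N among untreated cells (difference -0.35), with -0.59 under cytochalasin D and -0.86 under ZM447439 (SE 0.18). Against untreated cells of the same sort, it was higher by 1.46 and 1.23 under cytochalasin D (2N and 4N) and by 1.8 and 1.29 under ZM447439, and none of these 4 pairs of groups overlapped. The pseudocount of 0.5 is near the untreated level, so these differences understate the ratio. In RPKM the means were 0.474 ± 0.0993 and 0.259 ± 0.0133 in untreated 2N and 4N, 2.18 ± 0.361 and 1.33 ± 0.557 under cytochalasin D, and 2.92 ± 0.712 and 1.36 ± 0.0466 under ZM447439 (n = 3).

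LINC00973 was lower in 4N than in 2N in untreated cells and higher in 4N under ZM447439, the highest library being 3.27 times the lowest. Its level was 9.32, 8.5 and 7.69 RPKM in untreated 2N and 4.4, 5.29 and 3.5 in untreated 4N. Under cytochalasin D the 2N libraries held 8.55, 8.09 and 7.99 RPKM and the 4N libraries 8.46, 6.82 and 7.49. Under ZM447439 the order turned, with 5.48, 2.92 and 2.85 RPKM in 2N and 6.45, 7.96 and 7.89 in 4N. The 4N libraries were thus all below the 2N libraries in untreated cells and all above them under ZM447439, and the sorts overlapped under cytochalasin D.

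ADIRF-AS1, antisense to the adipogenesis factor gene ADIRF, was likewise lower in untreated 4N than 2N and higher in ZM447439 4N than 2N. It stood at 4.23, 3.61 and 3.89 RPKM in untreated 2N and 1.8, 2.11 and 1.18 in untreated 4N. Cytochalasin D 2N held 4.29, 2.96 and 3.09 RPKM and cytochalasin D 4N 5.08, 4.4 and 4.04. ZM447439 2N held 2.99, 1.94 and 1.67 RPKM and ZM447439 4N 3.62, 4.44 and 4.13. Again the sorts were apart in untreated and ZM447439 cells in opposite orders, and overlapped under cytochalasin D.

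TBC1D22A-DT, transcribed away from the start of the TBC1D22A gene, was highest in untreated 2N, at 3.15, 3.27 and 3.2 RPKM, and held 1.51, 1.18 and 0.678 in untreated 4N. Cytochalasin D 2N held 1.53, 1.28 and 1.26 RPKM and cytochalasin D 4N 1.83, 1.88 and 1.73. ZM447439 2N held 1.12, 0.695 and 0.778 RPKM and ZM447439 4N 1.25, 1.78 and 2.26. No other group reached the untreated 2N level, and under both drugs each 4N library was above each 2N library.

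The 4N minus 2N differences of these 3 noncoding RNAs in untreated cells were -0.89 for LINC00973 (SE 0.19), -1.03 for ADIRF-AS1 and -1.23 for TBC1D22A-DT (SE 0.18 each). Under ZM447439 they were 0.95, 0.78 and 0.72 in the same order, and under cytochalasin D -0.11, 0.35 and 0.32. ZM447439 number 1 showed the smallest reversal, with 4N to 2N ratios of 1.18, 1.21 and 1.11, while numbers 2 and 3 gave 2.73 and 2.77 for LINC00973, 2.29 and 2.47 for ADIRF-AS1, and 2.56 and 2.91 for TBC1D22A-DT. Without the 6 libraries that stood apart the ZM447439 differences were 1.32, 1.05 and 1.02. The group means of ZM447439 4N, 7.43 ± 0.853 RPKM for LINC00973 and 4.06 ± 0.413 for ADIRF-AS1, overlapped untreated 2N (8.5 ± 0.816 and 3.91 ± 0.31), whereas TBC1D22A-DT stayed lower (1.77 ± 0.504 against 3.2 ± 0.062).

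Against untreated 2N, ZM447439 2N was lower by 1.13 for LINC00973 (difference -1.13), by 0.74 for ADIRF-AS1 (-0.74) and by 1.45 for TBC1D22A-DT (-1.45). In the 4N sort ZM447439 was higher than untreated by 0.71, 1.07 and 0.49, the last with overlapping groups. Cytochalasin D 2N overlapped untreated 2N for LINC00973 (-0.04) and ADIRF-AS1 (-0.18) and was lower for TBC1D22A-DT (-1.0). Cytochalasin D 4N was higher than untreated 4N by 0.74, 1.21 and 0.55. Across the 18 libraries the correlation of log2 levels was 0.88 between LINC00973 and ADIRF-AS1, 0.78 between LINC00973 and TBC1D22A-DT and 0.72 between ADIRF-AS1 and TBC1D22A-DT; the libraries share the 6 groups, so this describes the group pattern.

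**Figure D2:**
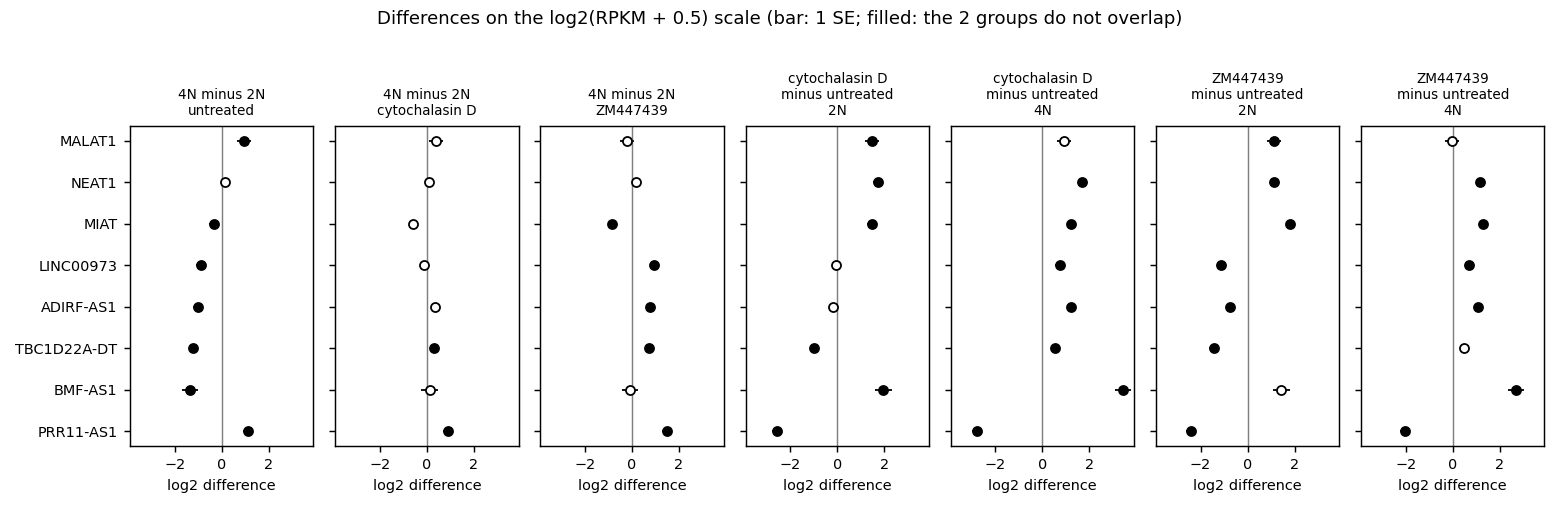
Differences on the log2(RPKM + 0.5) scale for the 8 noncoding RNAs in 7 comparisons; points are the difference of group means, bars are 1 SE, and filled points are groups that do not overlap (n = 3 each). LINC00973, ADIRF-AS1 and TBC1D22A-DT lie left of 0 for untreated 4N minus 2N and right of 0 for ZM447439, and PRR11-AS1 is higher in 4N in all 3 treatments and lower under both drugs.

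BMF-AS1, antisense to BMF, a gene of the BCL2 family that promotes cell death, was high under both drugs and lowest in untreated 4N cells. It stood at 7.0, 6.69 and 14.9 RPKM in untreated 2N and 2.56, 2.78 and 4.44 in untreated 4N. Cytochalasin D 2N held 30.9, 38.5 and 39.6 RPKM and cytochalasin D 4N 36.8, 38.1 and 42.7. ZM447439 2N held 14.1, 30.6 and 35.0 RPKM and ZM447439 4N 15.1, 28.6 and 28.9. Libraries that stood apart carried the extremes of their groups: untreated number 3 was the highest untreated library in each sort, and ZM447439 number 1 the lowest of its group in each sort.

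The BMF-AS1 difference from untreated was 1.96 in 2N and 3.43 in 4N under cytochalasin D, and 1.43 (groups overlapping) and 2.69 under ZM447439 (SE 0.36). Without the 6 libraries that stood apart the ZM447439 differences were 2.18 and 3.21. In untreated cells the 4N minus 2N difference was -1.35, with no overlap, and it was 0.11 and -0.09 under cytochalasin D and ZM447439, with overlap.

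PRR11-AS1, antisense to PRR11, a gene whose expression peaks late in the cell cycle, was higher in 4N than in 2N and far lower under both drugs. It stood at 26.7, 25.1 and 21.4 RPKM in untreated 2N and 52.2, 51.1 and 54.8 in untreated 4N. Cytochalasin D 2N held 4.82, 3.51 and 3.08 RPKM and cytochalasin D 4N 6.03, 7.95 and 8.05. ZM447439 2N held 6.41, 3.56 and 3.01 RPKM and ZM447439 4N 11.3, 12.9 and 12.8. The 2N and 4N groups did not overlap in any treatment, and every treated library lay below every untreated one.

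Its 4N minus 2N difference was 1.1 in untreated, 0.88 in cytochalasin D and 1.48 in ZM447439 (SE 0.21). Without the 6 libraries that stood apart the latter 2 were 1.17 and 1.82. Against untreated cells it was -2.55 and -2.77 under cytochalasin D (2N and 4N) and -2.43 and -2.05 under ZM447439. The group means ran from 3.8 ± 0.907 RPKM in cytochalasin D 2N to 52.7 ± 1.92 in untreated 4N (SD, n = 3). The summed G2 and mitosis genes were lowest and highest in the same groups, and their part in the PRR11-AS1 levels was not tested.

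Taking the 8 noncoding RNAs by comparison, untreated 4N and 2N did not overlap for 7 of them, beside 41.4% of all 13037 genes tested; 2 were higher in 4N (28.5% of all genes) and 5 lower (12.9%). Under cytochalasin D the sorts did not overlap for 2 of 8 (11.2% of all genes), with 2 higher in 4N (5.61%) and 0 lower (5.56%). Under ZM447439 they did not overlap for 5 of 8 (22.6%), with 4 higher in 4N (13.7%) and 1 lower (8.94%). Cytochalasin D and untreated did not overlap for 6 of 8 in 2N (72.0%), 4 higher (29.8%) and 2 lower (42.3%), and for 7 of 8 in 4N (73.8%), 6 higher (27.8%) and 1 lower (46.0%). ZM447439 and untreated did not overlap for 7 of 8 in 2N (60.4%), 3 higher (25.2%) and 4 lower (35.2%), and for 6 of 8 in 4N (64.9%), 5 higher (24.4%) and 1 lower (40.4%). Since these contrasts chose the noncoding RNAs, nothing is read from the counts.

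In the annotation (GENCODE 29), other measured genes overlap MALAT1, MIAT, LINC00973, ADIRF-AS1, BMF-AS1 and PRR11-AS1, and none overlaps NEAT1 or TBC1D22A-DT; the 1 that overlaps MALAT1, AP000769.2, had a mean of 0.0354 RPKM. A further 12 annotated genes at these places have no row in the table. BMF-AS1 lies wholly inside BMF on the other strand, and all 461 of its exon bases fall within a BMF exon. PRR11-AS1 lies wholly inside PRR11 on the other strand and shares 97 of its 321 exon bases (30.2%) with PRR11 exons. Values cover the whole span, and a PRR11 exon reaches 368 bases past the PRR11-AS1 start, so reads beyond those 97 bases may also be shared. PRR11-AS1 also lies wholly inside AC099850.2, likewise on the other strand, with no shared exon base. ADIRF-AS1 shares 917 exon bases (16.0% of its own) with ADIRF on the other strand and 440 with MMRN2 on the same strand. MIAT shares 2148 exon bases (18.2%) with Z99774.1 on the other strand, and LINC00973 lies in an intron of AC091212.1 on the same strand with no shared exon base. TBC1D22A-DT does not overlap TBC1D22A, whose start lies 53 bases away on the other strand.

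**Figure D3:**
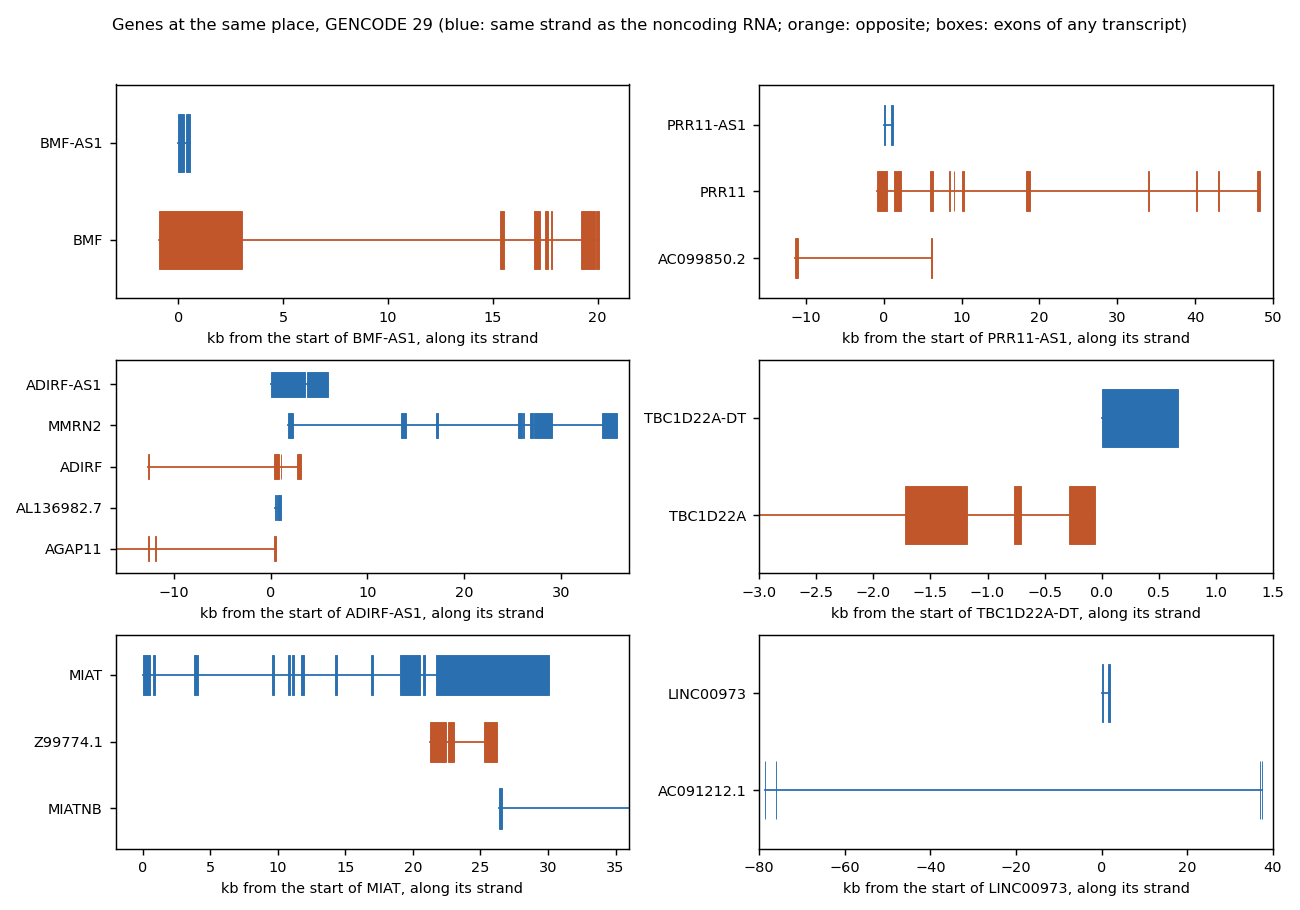
Maps of 6 noncoding RNAs and the genes at the same place in kilobases from the start of the noncoding RNA along its strand; boxes are exons of any transcript, lines are spans, blue is the same strand as the noncoding RNA and orange the opposite. All exons of BMF-AS1 fall in 1 BMF exon, while TBC1D22A-DT and TBC1D22A point away from each other 53 bases apart.

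For 5 of these noncoding RNAs the level ran parallel to that of an overlapping gene. A read at the overlap may be counted in both genes, so this likeness is in part fixed in advance. The reads of BMF-AS1 were 8.87% to 10.8% of those of BMF in the 18 libraries, and by group the mean share lay between 9.27% and 10.0%. The reads of PRR11-AS1 were 23.2% to 26.4% of those of PRR11, with group means of 23.9% to 25.5%. Its share of the reads of AC099850.2 varied more, with group means from 12.3% in ZM447439 2N to 25.0% in untreated 4N. The correlation of log2 RPKM was 1.00 for BMF-AS1 with BMF, for PRR11-AS1 with PRR11 and for MIAT with Z99774.1. For PRR11-AS1 with AC099850.2 it was 0.99. ADIRF-AS1 had a correlation of 0.99 with ADIRF and with MMRN2. Its reads were 184% to 217% of those of ADIRF and 113% to 129% of those of MMRN2. MIAT held 233% to 259% of the reads of Z99774.1. LINC00973 had 0.99 with AC091212.1, and its reads were 43.0% to 51.7% of those of AC091212.1. TBC1D22A-DT and TBC1D22A, which share no base, had a correlation of -0.57, with TBC1D22A at a mean of 0.055 RPKM over its span.

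**Figure D4:**
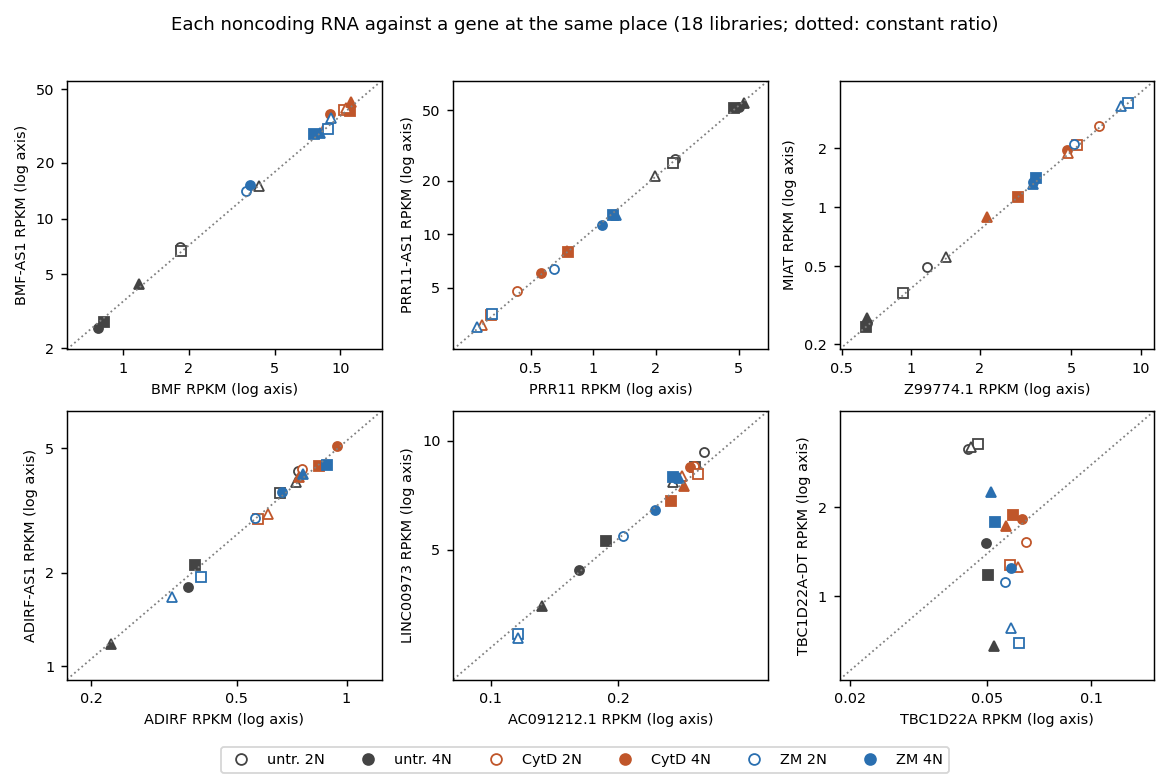
RPKM of 6 noncoding RNAs against RPKM of a gene at the same place in the 18 libraries (both axes log; open 2N, filled 4N, grey untreated, orange cytochalasin D, blue ZM447439; the dotted line is a constant ratio). BMF-AS1, PRR11-AS1 and MIAT lie along the line, and TBC1D22A-DT, which does not overlap TBC1D22A, does not. A read at an overlap may be counted in both genes.

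The partner genes were tested in the fit across all genes, with limma and Benjamini-Hochberg adjustment over the 13037 genes. That fit called 17.4% of all genes for untreated 4N against 2N, 0.0% under cytochalasin D (682 genes at an unadjusted p under 0.05) and 7.66% under ZM447439. Their reads include those at the overlap, so these tests are not independent of the noncoding RNAs. BMF was higher by 1.81 and 2.95 under cytochalasin D (2N and 4N; limma adjusted p = 0.000265 and 2.11e-06) and by 1.28 and 2.25 under ZM447439 (0.00505 and 6.09e-05; SE 0.34), and its mean went from 2.62 and 0.92 RPKM in untreated 2N and 4N to 9.89 and 10.4 under cytochalasin D and 7.17 and 6.49 under ZM447439. The untreated 4N minus 2N difference of BMF was -1.07 (limma adjusted p = 0.0435), which passed under 14 of 28 alternatives (adjusted p from 2.35e-06 to 0.199); it was -0.73 with adjusted p = 0.199 without untreated 2N number 3, and had adjusted p = 0.000531 with the replicate block. The call also ended without any 1 library of untreated 4N or cytochalasin D 2N, and without cytochalasin D 4N number 2 or 3 or ZM447439 4N number 2. With all libraries it ended with pseudocount 1, no filter on low values, quantile normalization or a fit of the compared groups alone (limma adjusted p from 0.0518 to 0.0945).

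PRR11 fell by 1.72 and 2.22 under cytochalasin D and by 1.62 and 1.69 under ZM447439 on the log2 scale (SE 0.13; limma adjusted p from 1.04e-09 to 1.28e-07). It was higher in 4N than in 2N by 1.00 in untreated cells (limma adjusted p = 6.78e-05), by 0.92 under ZM447439 (0.00181, and 0.149 in a fit of those groups alone) and by 0.49 under cytochalasin D (0.558). The PRR11 means were 2.29 and 5.04 RPKM in untreated 2N and 4N, 0.348 and 0.688 under cytochalasin D, and 0.416 and 1.21 under ZM447439. AC099850.2, with a mean of 5.31 RPKM over all libraries, fell by 1.59 and 2.12 under cytochalasin D and by 1.45 and 1.61 under ZM447439 (SE 0.11; limma adjusted p from 6.03e-10 to 1.36e-07).

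ADIRF held fewer reads than ADIRF-AS1 in every library, so its values may in part be reads of ADIRF-AS1. ADIRF fell by 0.55 from 2N to 4N in untreated cells (SE 0.10, limma adjusted p = 0.00137). Under ZM447439 it was 0.45 higher in 4N (limma adjusted p = 0.018), a call that ended in the fit of those groups alone (0.172) and without number 2 or number 3 of either ZM447439 sort (lowest to highest adjusted p over 28 alternatives, 0.000219 to 0.172). Against untreated cells ADIRF was 0.70 higher in cytochalasin D 4N (1.87e-05), 0.62 higher in ZM447439 4N (0.000115) and lower in ZM447439 2N (-0.38, limma adjusted p = 0.00485). AL136982.7, which shares 465 exon bases with ADIRF-AS1 on the same strand, had -1.05 for untreated 4N minus 2N (SE 0.23; limma adjusted p = 0.00555). Under ZM447439 its 4N minus 2N difference was 0.69 and was not called (limma adjusted p = 0.0832), and it passed in 2 of 28 alternatives (0.00402 to 0.329), 1 of them without ZM447439 2N number 1 (0.025).

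Z99774.1, at the MIAT locus, was higher in all 4 drug comparisons, by 1.67 to 2.22 (SE 0.22; limma adjusted p from 1.2e-06 to 9.3e-06). Its 4N minus 2N difference was -0.54 in untreated cells (limma adjusted p = 0.116, and 0.0335 with the replicate block; 0.0212 to 0.318 over 28 alternatives) and -0.73 under cytochalasin D (0.68). It was -0.97 under ZM447439 (limma adjusted p = 0.0196), a call made in 22 of 28 alternatives (adjusted p from 0.000174 to 0.149 over the 28). Among those without the call were leaving out number 2 or number 3 of either ZM447439 sort, and the fit of the ZM447439 groups alone.

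Most genes for proteins of paraspeckles, the bodies that NEAT1 scaffolds, went the other way from NEAT1 in RNA level under both drugs. Protein was not measured, and the NEAT1 value does not tell its long form apart. Of 26 listed genes 23 were tested; 20 fell and 2 rose in cytochalasin D 2N, 21 fell and 2 rose in cytochalasin D 4N, 19 fell and 2 rose in ZM447439 2N, and 20 fell and 1 rose in ZM447439 4N (limma, adjusted p below 0.05). The share of all genes called in those comparisons was 66.6%, 70.5%, 56.0% and 55.2%, and the list's median difference was -0.68, -0.69, -0.60 and -0.46, beside -0.08, -0.13, -0.04 and -0.07 for all genes. With quantile normalization the list's medians in the 4N comparisons were -0.43 under cytochalasin D, where 20 fell, and -0.3 under ZM447439, where 15 fell and 2 rose. RBMX, an RNA-binding protein that takes part in splicing, went from 7.95 ± 0.284 to 2.7 ± 0.112 RPKM in the 4N sort under cytochalasin D (n = 3; -1.4, SE 0.07, limma adjusted p = 3.81e-10). SFPQ, a core paraspeckle protein, went from 26.4 ± 0.868 to 14.1 ± 0.917 RPKM in ZM447439 4N (-0.89, SE 0.06, limma adjusted p = 3.58e-08). CIRBP, a cold-inducible RNA-binding protein, rose from 7.61 ± 0.661 to 10.8 ± 0.929 RPKM in cytochalasin D 2N (0.48, SE 0.09, limma adjusted p = 0.000209).

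Of the genes for proteins of nuclear speckles and SR splicing factors, the setting of MALAT1, more fell than rose in RNA level under both drugs. Of 29 listed genes 27 were tested, and 16, 17, 17 and 16 fell against 6, 4, 2 and 2 that rose in cytochalasin D 2N, cytochalasin D 4N, ZM447439 2N and ZM447439 4N. In the same order 81.5%, 77.8%, 70.4% and 66.7% of the list were called, beside 66.6%, 70.5%, 56.0% and 55.2% of all genes, with list medians of -0.34, -0.29, -0.34 and -0.28. With quantile normalization 9, 8, 4 and 5 rose and 14, 12, 14 and 11 fell, and the medians in the 4N comparisons were -0.1 (cytochalasin D) and -0.09 (ZM447439). SRSF1, an SR splicing factor, went from 68.7 ± 0.383 to 27.1 ± 1.49 RPKM in cytochalasin D 2N (n = 3; -1.33, SE 0.07, limma adjusted p = 1.35e-09). LUC7L3, a splicing factor, rose from 2.19 ± 0.145 to 3.08 ± 0.0829 RPKM in cytochalasin D 4N (0.41, SE 0.06, limma adjusted p = 5.04e-05).

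Other named long noncoding RNAs moved in both directions. Of 46 listed, 25 were tested: 5 rose and 16 fell in cytochalasin D 2N, 7 rose and 11 fell in cytochalasin D 4N, 5 rose and 11 fell in ZM447439 2N, and 10 rose and 5 fell in ZM447439 4N (limma, adjusted p below 0.05). In the same order 84.0%, 72.0%, 64.0% and 60.0% of the list were called, beside 66.6%, 70.5%, 56.0% and 55.2% of all genes. With quantile normalization 6, 8, 6 and 13 rose and 14, 8, 8 and 4 fell. SNHG1, a host of small nucleolar RNAs, went from 25.8 ± 2.78 to 6.46 ± 1.48 RPKM in cytochalasin D 2N (n = 3; -1.93, SE 0.20, limma adjusted p = 7.47e-07). NORAD, which binds PUMILIO proteins and is known for guarding chromosome number, rose from 44.2 ± 4.16 to 78.0 ± 9.65 RPKM in the same comparison (0.81, SE 0.10, limma adjusted p = 6.19e-06). MEG3, an imprinted noncoding RNA, rose from 1.85 ± 0.185 to 5.04 ± 0.698 RPKM there (1.23, SE 0.11, limma adjusted p = 1.43e-07). Among 1841 other tested genes annotated as long noncoding, 61.7%, 68.8%, 52.7% and 55.0% were called in the 4 drug comparisons, near the shares of all genes.

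DANCR, a noncoding RNA that restrains differentiation, was also lower in 4N than in 2N in untreated cells and higher in 4N under ZM447439, and the difference between these treatments was not tested. It was 5.53 ± 0.847 RPKM in untreated 2N and 3.17 ± 0.34 in untreated 4N (n = 3; -0.71, SE 0.13, limma adjusted p = 0.00135). Under ZM447439 it was 3.32 ± 0.301 RPKM in 2N and 5.02 ± 0.635 in 4N (0.53, SE 0.13, limma adjusted p = 0.0246). That call was not made without number 2 or number 3 of either ZM447439 sort, in the fit of those groups alone, or with no filter on low values (limma adjusted p from 0.0661 to 0.149 in these).

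The tested genes with the most similar log2 levels over the 18 libraries, up to 3 for each noncoding RNA, are named as a description, with the other 7 noncoding RNAs and neighbours within 5 kb left out. PRR11-AS1 was nearest to CDC20, which switches on the anaphase-promoting complex (r = 0.997), AC008870.3 (0.996) and PLK1, a mitotic kinase (0.995). CDC20 was at 31.9 RPKM in untreated 2N and 73.2 in untreated 4N, and at 2.92 to 12.4 in the treated groups. NEAT1 was nearest to COL7A1, a collagen of basement membrane anchoring fibrils (0.982), CES2 (0.97) and AHSA2P (0.969). MIAT was nearest to CHPF2 (0.982), MMP2, a matrix metalloproteinase (0.977), and SLC2A10 (0.973).

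BMF-AS1 was nearest to AC006435.1 (0.979), CDK20 (0.978) and CLN8-AS1 (0.977). For TBC1D22A-DT the named genes are TIGD1 (0.884) and AC027307.3 (0.864). ADIRF-AS1 was nearest to the antisense genes KMT2E-AS1 (0.927) and GABPB1-AS1 (0.903) and to MAP2K3 (0.889). LINC00973 was nearest to NR1D2, a nuclear receptor of the circadian clock (0.888), ST3GAL1-DT (0.856) and ADIRF, the gene opposite ADIRF-AS1 (0.849). MALAT1 was nearest to AC020922.2 (0.894), AP002490.1 (0.873) and FKBP2 (0.873).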

How the data were processed

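Polyadenylated RNA of 18 libraries in 6 groups of 3 was analysed. The authors deposited 1 table of RPKM values for 57773 Ensembl genes; per the submitters' processing notes, CASAVA 1.8.2, TopHat2 and edgeR were used, with hg19, and what counted the reads was not found in the labels or headers. Depth was read from low values, those worth under 200 reads: 89.1% to 89.6% were whole reads within 0.05 when the gene's span was taken as its length, against 11.5% to 12.5% with exon length. Reads summed over genes were 0.972 to 1.13 times the implied library size, so a read may be counted in more than 1 gene.

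The 13037 genes averaging 0.5 RPKM or more were fitted with limma 3.58.1 (R 4.3.3) on log2(RPKM + 0.5), 1 mean per group over all libraries (12 residual degrees of freedom), with two-sided tests, Benjamini-Hochberg adjustment and a threshold of 0.05; errors are SD for levels and SE for differences. The fit was tested on simulated data. Differences are on the log2(RPKM + 0.5) scale, which understates the change of low genes. Symbols were found for 90.6% of identifiers. Names, spans and overlaps came from GENCODE 29, a different build from hg19; promoters came from RefSeq (GRCh38.p14), where 5 of the 8 noncoding RNAs had an entry.

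The noncoding RNAs and the gene lists were chosen with earlier results of these data known. Besides them, the text names the genes that overlap them or lie within 5 kb, the 3 most similar tested genes, and in each list up to 3 genes with the greatest rise and 3 with the greatest fall past the threshold. Same-numbered 2N and 4N libraries of a treatment deviated together (correlation of deviations 0.19, 0.19 and 0.45 in untreated, 0.63, 0.33 and 0.40 under cytochalasin D, 0.44, 0.28 and 0.26 under ZM447439). Some unlike numbers did so too: 0.26 and 0.22 between untreated 1 and 2, 0.31 and 0.39 between cytochalasin D 2 and 3. Between ZM447439 2 and 3 the values were 0.32 and 0.17. The other unlike numbers had negative values. Numbers were taken to pair the sorts, though the correlations set apart only untreated 3, cytochalasin D 1 and ZM447439 1. Between treatments some correlations were negative, and numbers were not taken to pair in the fit reported. The replicate block did fit the number across treatments in the comparisons of drug with untreated. Alternatives were other pseudocounts, filters and scalings, RPM over the span, a fit of the compared groups alone, the replicate block, and leaving out libraries. Some results that the naming rule would give are not reported here.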

Additional observations from a re-analysis of the deposited data

Results flagged for a closer look

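Some sort differences ran in opposite directions in different treatments, with every 4N library on one side of every 2N library in each. LINC00973 was lower in 4N than in 2N in untreated cells (-0.89 on the log2 scale) and higher under ZM447439 (0.95). ADIRF-AS1 had -1.03 in untreated cells and 0.78 under ZM447439. TBC1D22A-DT had -1.23 in untreated cells, 0.32 under cytochalasin D and 0.72 under ZM447439. These differences between treatments were not tested, because the same contrasts served to choose the noncoding RNAs. The TBC1D22A-DT values rest on 26 to 165 reads per library.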

How the results depend on the processing

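Other filters, the replicate block, a fit of the compared groups alone and leaving out a library of another group cannot move a difference of group means. Pseudocounts, scalings, RPM and leaving out libraries of the compared groups can move it. Where groups do not overlap, of these only rescaling and quantile normalization could turn its sign. Under those scalings no difference of the 8 noncoding RNAs whose groups did not overlap changed sign. Without the 6 libraries that stood apart, ZM447439 2N minus untreated 2N was 2.04 for MIAT (1.8 with all), -1.47 for LINC00973 (-1.13) and -2.81 for PRR11-AS1 (-2.43). Cytochalasin D 4N minus untreated 4N was then 0.94 for ADIRF-AS1 (1.21 with all). The number of noncoding RNAs with groups apart under cytochalasin D (4N against 2N) was 5 without the 6 libraries that stood apart, against 2. Leaving out single libraries gave 7 in every case for untreated 4N against 2N, 2 to 5 under cytochalasin D and 5 to 7 under ZM447439. For drug against untreated it gave 6 to 7 and 7 to 8 (cytochalasin D, 2N and 4N) and 7 to 8 and 6 to 7 (ZM447439). Leaving out libraries can only keep or raise such a count, so nothing is read from these counts.

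The count of all genes past adjusted p 0.05 moved more; the cause was not tested, beyond more genes tested with a lower filter. For untreated 4N minus 2N it was 2272, and 3652 with no filter, 3531 with a filter of 0.1, 4097 on RPM (RPKM times the span in kb) and 3901 without the 6 libraries (single libraries left out: 1576 to 2700). For cytochalasin D 4N minus 2N it was 0 with limma (682 at unadjusted p under 0.05), and 13 with no filter, 1 on RPM, 1 in a fit of these groups alone, 3 with the replicate block and 935 without the 6 libraries (single libraries left out: 0 to 5). For ZM447439 4N minus 2N it was 998, and 1534 on RPM, 0 in a fit of these groups alone, 2019 with the replicate block and 5247 without the 6 libraries (single libraries left out: 207 to 2723). Against untreated, with no filter and on RPM, cytochalasin D had 15635 and 13709 in 2N (8688 in the fit reported) and 16881 and 14520 in 4N (9191), and ZM447439 had 11487 and 11313 in 2N (7304) and 11579 and 11485 in 4N (7190). Leaving out single libraries gave 7993 to 8922, 8648 to 9436, 6456 to 7587 and 6422 to 7548 for these 4. Rescaling moved the median of all genes by 0.12 and quantile normalization by 0.14 in cytochalasin D 4N minus untreated, where 3398 genes were higher and 5793 lower; the splits became 4448 and 4562, and 4435 and 4364.

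The replicate block raised the p53 targets that rose in ZM447439 4N against 2N from 2 to 13 of 14 tested. Among all 13037 genes tested it raised those that rose in this comparison from 679 to 1099.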
